A study of Schmidtea mediterranea with 11 samples.

Results

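soxP-2 encodes a SOX-family transcription factor of the planarian Schmidtea mediterranea that marks sigma-neoblasts, a class of its adult stem cells. It was followed here as 1 transcript, comp8483_c0_seq1, out of the 26562 transcripts of the deposited expression table, chosen by its identifier and read in all 11 libraries. The table holds assembly identifiers only, and the pairing of this identifier with the name soxP-2, like those of the other markers, is the study's own. Its mean level was 38.6% of that in control worms after knockdown of bruli and 33.3% after knockdown of Smed-H2B, and it did not differ from control beyond the spread of the libraries after knockdown of the mbnl genes.

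The study asked how knockdown of 2 opposing splicing regulators, the CELF-family gene bruli (Smed-bruno-like) and the muscleblind-family mbnl genes, affects planarian stem cells and their descendants. All animals were adults of Berlin-1, an asexual strain raised from a single founder, and were injected with dsRNA on 3 consecutive days. bruli(RNAi) worms received bruli dsRNA, mbnl(RNAi) worms received dsRNA against 4 mbnl genes together, and control(RNAi) worms received dsRNA for gfp, a gene planarians lack, with 1 whole-worm library of each group at days 20, 25 and 30. Knockdown of Smed-H2B and of Smedwi-2 added 1 library each, with no day stated. The days served as the replicates of a group, and the sources used here do not say whether they came from separate cohorts or how many worms were pooled.

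Neoblasts are the only dividing somatic cells of planarians. They renew themselves and give rise to every differentiated cell type, which makes regeneration possible. Among them, sigma-neoblasts form a broad class that divides after wounding and gives rise to zeta-neoblasts, the class whose postmitotic progeny build the epidermis, whereas gamma-neoblasts resemble gut precursors. SOX factors bind DNA through an HMG box, and several members of the planarian SoxP group are used as neoblast class markers. Histone H2B is needed to keep neoblasts, and smedwi-2 encodes a PIWI protein that acts in their differentiation.

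The checks of the libraries came out as labelled for bruli and for most of the mbnl genes. bruli RNA was at 7.63%, 4.01% and 5.03% of control in bruli(RNAi) worms at days 20, 25 and 30, with a log2 fold change of -3.94 and an adjusted p of 3.37e-06 from limma. In mbnl(RNAi) worms mbnl-1 had a log2 fold change of -0.99 (adjusted p = 0.00113 from limma), mbnl-like-2 one of -1.56 (adjusted p = 0.000558) and mbnl-like-1 one of -1.96 (adjusted p = 0.00017), whereas mbnl-like-3, at 2.40 TPM in these worms against 2.58 TPM in control, did not pass (adjusted p = 0.834). Whether Smed-H2B and Smedwi-2 RNA fell in their own libraries was not examined here. Values are in TPM, a share of the library scaled by transcript length, and since TPM keeps no read counts, the depth and the counting error of soxP-2 are unknown. All fold changes were taken on log2(TPM+1), a scale on which the change of a low transcript comes out smaller than it is.

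bruli knockdown lowered soxP-2 at all 3 time points. It measured 4.71, 4.94 and 4.22 TPM in bruli(RNAi) worms at days 20, 25 and 30, a mean of 4.62 ± 0.372 TPM (SD, n = 3). control(RNAi) worms had 11.5, 11.7 and 12.8 TPM at the same days, a mean of 11.99 ± 0.674 TPM (SD, n = 3). The bruli(RNAi) values were 40.8%, 42.3% and 33.0% of the control of the same day. The highest bruli(RNAi) library lay far below the lowest control library, a separation in this direction that 18.6% of the tested transcripts showed. The log2 fold change was -1.21 (SE 0.12, 95% confidence interval -1.49 to -0.93, adjusted p = 0.000915 from limma), where 11.3% of all tested transcripts were called lower and 6.75% higher. Only 149 transcripts, 0.962% of those tested, had a lower fold change, and the median over all of them was 0.0049. Because the RNA came from whole worms, fewer soxP-2-expressing cells and less soxP-2 RNA per cell cannot be told apart.

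soxP-2 was a moderately expressed transcript that varied little over the days of a group. Its coefficient of variation over the days was 8.04% in bruli(RNAi) worms, 10.5% in mbnl(RNAi) worms and 5.62% in control worms, whereas that of smedwi-1, the pan-neoblast marker, was 51.9% in bruli(RNAi) worms and 4.78% in control worms. These values include change over time and are not measurement error alone. In bruli(RNAi) worms smedwi-1 went from 26.8 TPM at day 20 to 17.2 TPM at day 25 and 8.63 TPM at day 30. The control mean of soxP-2 was above 65.4% of all transcripts and above 40.7% of the 15492 transcripts kept for testing, whose median was 16.2 TPM.

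**Figure D1:**
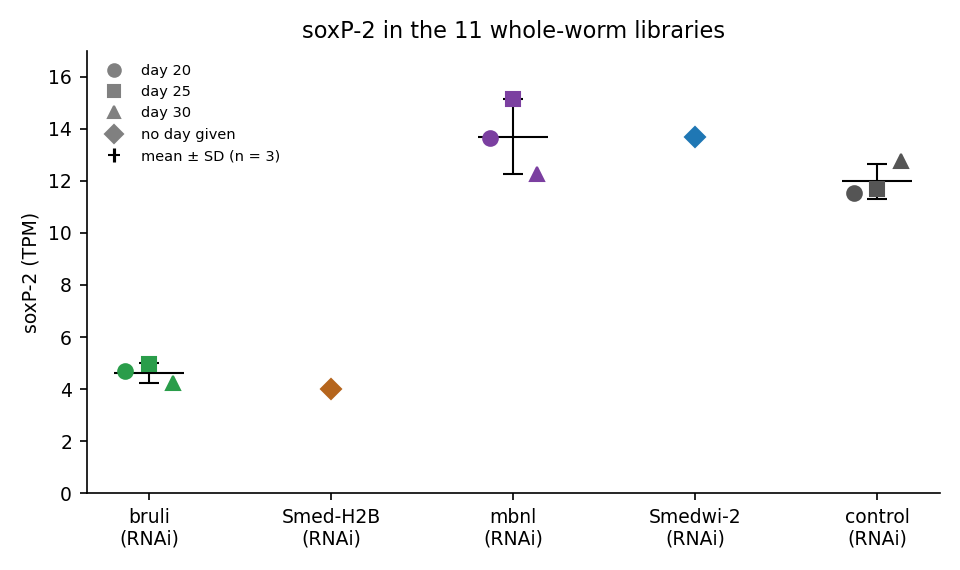
soxP-2 level in TPM (vertical axis, linear from 0) in each library, by knockdown (horizontal axis). Symbols mark the day, and bars give the mean ± SD of the groups with 3 libraries. The bruli(RNAi) libraries (4.22 to 4.94 TPM) and the Smed-H2B(RNAi) library (3.99 TPM) lie below all control libraries (11.5 to 12.8 TPM), while mbnl(RNAi) (12.3 to 15.1 TPM) overlaps with control.

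The decrease was already present at the first time point and grew little afterwards. On the log2 scale soxP-2 differed from the control of its day by -1.13 at day 20, -1.09 at day 25 and -1.40 at day 30. It was therefore past the study's own threshold of -0.7 at each day, as were 1.57% of the tested transcripts. A difference under -0.7 was reached by 3.05% of the transcripts at day 20, by 6.05% at day 25 and by 9.64% at day 30. Among the 1758 transcripts that passed the test as lower in bruli(RNAi) worms, the median difference was -0.42 at day 20, -0.58 at day 25 and -0.68 at day 30. The change between day 20 and day 30 was -0.27 for soxP-2, the same as the median of those transcripts, while 84.4% of them were more negative at day 30 than at day 20. Each day holds 1 library per group, so single days carry no test.

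The Smed-H2B(RNAi) library had the lowest soxP-2 level of the series. It measured 3.99 TPM, which is 33.3% of the control mean and a log2 difference of -1.38, where the controls had an SD of 0.0738. With a pseudocount of 5 in place of 1 the difference was -0.92. Of the tested transcripts, 6.31% were under -0.7 in this library, 32.4% were also below every control library, and 0.762% had a lower difference than soxP-2. The value was also below all 3 bruli(RNAi) libraries, which held for 24.1% of the transcripts. With 1 library and no day given, no test of this difference was made.

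After mbnl knockdown soxP-2 did not differ from control by the test. It measured 13.7, 15.1 and 12.3 TPM in mbnl(RNAi) worms at days 20, 25 and 30, a mean of 13.7 ± 1.44 TPM (SD, n = 3) against 11.99 ± 0.674 TPM in control worms (SD, n = 3). The groups overlapped, since the day 30 mbnl(RNAi) library was below the day 30 control, whereas those of days 20 and 25 were above all control libraries. Relative to the control of its day, soxP-2 was at 118% at day 20, 130% at day 25 and 96.1% at day 30, an order of signs shared by 9.24% of the transcripts. The log2 fold change was 0.17 (SE 0.12, 95% confidence interval -0.10 to 0.45, adjusted p = 0.419 from limma), in a comparison where 1.68% of the transcripts were called lower and 4.31% higher. The median change over all transcripts was itself 0.11 in mbnl(RNAi) worms, and after median centring of the libraries soxP-2 differed by 0.04. Centring also turned the split of calls in this comparison, to 557 lower and 212 higher, against 261 lower and 667 higher without it. A miss of the threshold does not show equal levels, and the interval leaves room for a rise of up to 0.45 and a decrease of up to 0.10 on the log2 scale.

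Set directly against each other, the knockdowns differed. The 3 bruli(RNAi) libraries (4.22 to 4.94 TPM) were all below the 3 mbnl(RNAi) libraries (12.3 to 15.1 TPM), as in 30.0% of the transcripts. soxP-2 had a log2 fold change of -1.38 for bruli over mbnl (SE 0.12, 95% confidence interval -1.66 to -1.11, adjusted p = 0.000235 from limma). In this comparison 20.0% of the transcripts were called lower and 5.24% higher, with a median of -0.11, and 0.923% had a lower fold change than soxP-2.

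In the Smedwi-2(RNAi) library soxP-2 measured 13.7 TPM, which is 114% of the control mean and 0.18 above it on the log2 scale. This was above all 3 control libraries, a position shared by 36.0% of the tested transcripts, and 66.8% of them had a lower difference than soxP-2. It was inside the range of the mbnl(RNAi) libraries.

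Ordered by level, soxP-2 was lowest in Smed-H2B(RNAi), followed by bruli(RNAi), control(RNAi), mbnl(RNAi) and Smedwi-2(RNAi). The only neighbours separated by a test were bruli(RNAi) and control(RNAi). mbnl(RNAi) and control(RNAi) did not differ beyond their spread, Smedwi-2(RNAi) fell among the mbnl(RNAi) libraries, and the gap between Smed-H2B(RNAi) and bruli(RNAi) could not be tested. The 11 libraries thus held 4 low values between 3.99 and 4.94 TPM and 7 high values between 11.5 and 15.1 TPM.

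The other neoblast and progeny markers fell after bruli knockdown too, but by different amounts and at different times. smedwi-1, which encodes a PIWI protein present in all neoblasts, was at 13.9%, 8.33% and 4.07% of control in bruli(RNAi) worms at days 20, 25 and 30 (adjusted p = 0.000152 from limma). pcna, the sliding clamp of DNA replication and so a marker of cells in cycle, was at 9.98%, 6.23% and 10.4% (adjusted p = 3.37e-06 from limma). Both were far lower than soxP-2, which kept 33.0% to 42.3%. p53, the tumour suppressor homologue expressed in zeta-neoblasts and early progeny, was at 70.8%, 46.9% and 33.4% (adjusted p = 0.00646 from limma). prog-1 and prog-2-1, which mark early epidermal progeny, were at 36.2%, 27.8% and 9.62% (adjusted p = 0.0022 from limma) and at 57.4%, 46.9% and 24.0% (adjusted p = 0.00474 from limma). The third progeny marker, prog-1-1, was at 33.3%, 28.2% and 9.53% (adjusted p = 0.0019 from limma).

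The time courses differed in shape. The log2 difference from control changed between days 20 and 30 by -1.67 for smedwi-1, by -1.03 for p53, by -1.88 for prog-1, by -1.78 for prog-1-1 and by -1.26 for prog-2-1. For soxP-2 this change was -0.27 and for pcna it was 0.05. soxP-2 and pcna were thus near their final level at day 20, while the other markers went on falling, and at day 30 p53 and soxP-2 were at similar shares of control, 33.4% and 33.0%. These are values of single libraries and were not tested against each other.

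**Figure D2:**
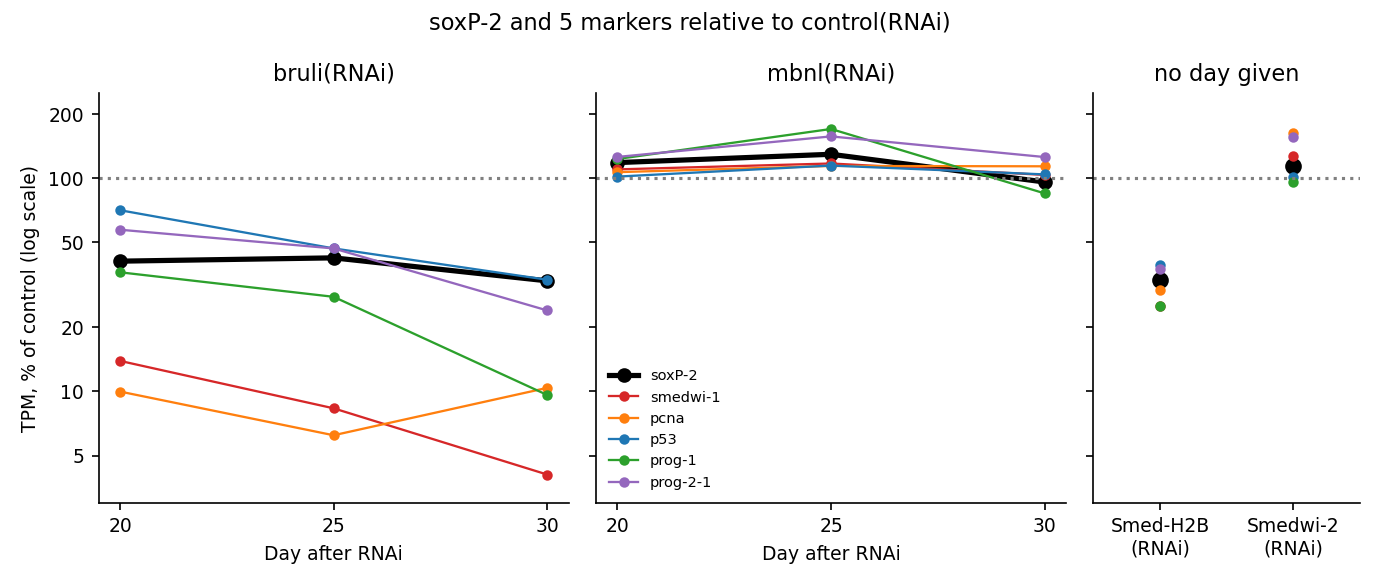
TPM as a percentage of control (vertical axis, log scale) of soxP-2 (black) and 5 markers, by day after RNAi for bruli(RNAi) and mbnl(RNAi) against the control of the same day, and for the Smed-H2B(RNAi) and Smedwi-2(RNAi) libraries against the control mean. After bruli knockdown soxP-2 stays between 33.0% and 42.3%, above smedwi-1 and pcna at every day, whereas after Smed-H2B knockdown all of the markers lie between 25.1% and 39.3%.

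Whether soxP-2 fell by as much as each marker was asked with the log2 ratio of soxP-2 to the marker within each library, for 5 markers. The ratio to smedwi-1 averaged -1.59 ± 0.70 in bruli(RNAi) worms and -3.98 ± 0.046 in control worms (SD, n = 3 each), a difference of 2.38, with 1.67, 2.42 and 3.07 at days 20, 25 and 30. The ratio to pcna averaged -0.066 ± 0.43 in bruli(RNAi) worms and -2.14 ± 0.062 in control worms (SD, n = 3 each), a difference of 2.07. In both cases no bruli(RNAi) library overlapped with a control library, and the two-sided exact permutation test gave p = 0.1, the smallest that 3 against 3 libraries allow (Benjamini-Hochberg adjusted over the 5 markers, 0.25). This permutation test therefore cannot bring these ratios under 0.05, and no other test of them was made.

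Against the other markers the ratio moved less. It differed by 1.00 for prog-1 (exact permutation p = 0.2, adjusted 0.333), with 0.32, 0.74 and 1.94 at days 20, 25 and 30. Without the day 30 bruli library the prog-1 value was 0.57, and without all libraries of day 30 it was 0.53. For p53 the difference was -0.19 (exact permutation p = 0.8, adjusted 0.9), and it had a different sign at day 20 (-0.65) and at day 30 (0.11). For prog-2-1 it was 0.11 (exact permutation p = 0.9, adjusted 0.9), again with opposite signs at day 20 (-0.33) and at day 30 (0.66). Leaving out the day 20 libraries turned the p53 ratio to 0.036, and leaving out those of day 30 turned the prog-2-1 ratio to -0.17.

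After Smed-H2B knockdown the markers lay closer together. smedwi-1 was at 25.2% of the control mean in that library, pcna at 29.8%, p53 at 39.3%, prog-1 at 25.1% and prog-2-1 at 37.6%, with soxP-2 at 33.3%. The log2 ratio of soxP-2 to smedwi-1 was 0.59 above control in the Smed-H2B(RNAi) library and 2.38 above it in the bruli(RNAi) libraries. For pcna the same comparison gave 0.31 in the Smed-H2B(RNAi) library and 2.07 in the bruli(RNAi) libraries. bruli RNA itself was at 23.2% of control in the Smed-H2B(RNAi) library.

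In mbnl(RNAi) worms the ratios of soxP-2 to smedwi-1 and to pcna differed from control by 0.03 and 0.02, and those to p53, prog-1 and prog-2-1 by 0.08, -0.10 and -0.27. The ratio to prog-2-1 was between -7.41 and -7.37 in mbnl(RNAi) worms and between -7.31 and -7.01 in control worms, without overlap. prog-2-1 itself did not overlap either, at 2229 to 2665 TPM in mbnl(RNAi) worms against 1695 to 1985 TPM in control worms. Of the tested transcripts 20.0% lay above control without overlap after mbnl knockdown. How many showed such a separation of their ratios was not counted. No test of these ratios was made. None of the markers passed the test after mbnl knockdown. prog-2-1 came nearest, with a log2 fold change of 0.44 (SE 0.22, adjusted p = 0.249 from limma). In the Smedwi-2(RNAi) library smedwi-1 was at 128% of the control mean, pcna at 164% and prog-2-1 at 156%, against 101% for p53, 96.4% for prog-1 and 114% for soxP-2.

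soxP-2 was then placed beside lists of RNA-binding proteins (RBPs). The neoblast-enriched and differentiated-cell lists were cut here from the RBPs annotated by the study, by their expression in sorted cells of other libraries. The study does not define these lists. They differ in size, 17 against 43, and were not shown to be equally enriched, so their counts do not compare matched sets. The core spliceosome transcripts were chosen by the study through KEGG terms, not by expression. Most of the neoblast-enriched RBPs fell after bruli knockdown. Of 17 on the list 15 passed the filter on low values, and 14 were called lower and 0 higher, with a median log2 fold change of -0.87. Over all tested transcripts 11.3% were called lower and 6.75% higher, with a median of 0.0049. The list includes bruli itself, the knocked-down gene. The count was 6 without the libraries of day 25, 8 without those of day 30 and 9 without the filter. In those settings 178, 404 and 765 of all transcripts were called lower, against 1758 in the main one. comp7745_c0_seq1, which has no human hit, was the exception, at -0.57 (adjusted p = 0.242 from limma).

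The members described next were chosen after their values were seen. A transcript whose best human hit is PIWIL1, a PIWI-family protein that binds small RNAs, had 91.0 TPM in bruli(RNAi) worms against 217 TPM in control worms and a log2 fold change of -1.25 (SE 0.08, adjusted p = 9.51e-05 from limma). The DDX4 hit comp1985_c0_seq1, a Vasa-type RNA helicase, had a log2 fold change of -1.14 (adjusted p = 0.000152 from limma), and a second DDX4 hit, comp2082_c0_seq1, one of -0.79 (adjusted p = 0.00115 from limma). The hit to DDX55, another RNA helicase, was at -1.09 (adjusted p = 0.0187 from limma). The hit to SNRPD2, an Sm protein of the spliceosome, was at -0.68 (adjusted p = 0.00288 from limma). Of the list, bruli, smedwi-1 and the PIWIL1 hit had a lower fold change than soxP-2.

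Of 77 core spliceosome transcripts tested 54 were called lower and 0 higher after bruli knockdown, against 11.3% lower and 6.75% higher of all transcripts, with a median of -0.45 and a lowest value of -1.09, so that soxP-2 was below all of them. The number called lower was 29 without the filter, 30 without the day 25 bruli library and 35 without the day 30 control library. It was 6 without the libraries of day 25 and 20 without those of day 30. In the same settings and order, the transcripts called lower over the whole comparison fell from 1758 to 765, 703, 879, 178 and 404. At an unadjusted p under 0.05, limma gave 0 higher among the core spliceosome transcripts and 0 higher among the neoblast-enriched RBPs. The differentiated-cell RBPs had 8 higher and 1 lower at that p. Of all 15492 tested transcripts 2190 were higher and 2788 lower. Of 43 RBPs of differentiated cells 42 were tested, and 1 was called lower and 5 higher (0 to 6 under the alternatives), with a median of 0.10. The shares over all transcripts were again 11.3% lower and 6.75% higher, with 23 to 1409 called higher under the alternatives.

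With bruli set directly against mbnl, 15 of the neoblast-enriched RBPs were called lower by limma (median -0.995). Over all transcripts that comparison had 20.0% lower and 5.24% higher, with a median of -0.11. After mbnl knockdown, relative to control, 0 of these RBPs were called in either direction (median 0.15). At an unadjusted p under 0.05, 1 was higher and 0 lower. Over all transcripts 1.68% were called lower and 4.31% higher after mbnl knockdown. Of the differentiated-cell RBPs 1 was called lower, mbnl-1 itself, and 4 higher (median 0.08). The number called higher was 2 without any 1 of the mbnl libraries and without the control library of day 25 or of day 30. It was 0 without the libraries of day 25 or of day 30. Calls higher over all transcripts fell as well, from 667 to between 69 and 215 without such a library. They fell to 21 without the libraries of day 25 and to 39 without those of day 30. Of the core spliceosome transcripts 1 was called lower and 0 higher (median 0.07), with 2 lower and 11 higher at an unadjusted p under 0.05. At that unadjusted p from limma, 784 of all 15492 tested transcripts were lower and 2966 higher. In the Smed-H2B(RNAi) library the median of the neoblast-enriched list was -0.87 relative to the control mean, and 14 of 15 were below all control libraries, as were 32.4% of all tested transcripts. In the Smedwi-2(RNAi) library its median was 0.31.

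The summed level of the neoblast-enriched RBPs was, like soxP-2, below all control libraries after bruli and Smed-H2B knockdown, although the order among these low libraries differed. It was 316 to 404 TPM in bruli(RNAi) worms, 413 TPM in the Smed-H2B(RNAi) library, 1009 to 1117 TPM in mbnl(RNAi) worms and 1230 TPM in the Smedwi-2(RNAi) library, against 904 to 975.3 TPM in control worms. Members with high levels weigh most in such a sum. It includes bruli itself (mean 4.64 TPM in bruli(RNAi) worms against 83.6 TPM in control), smedwi-1 (17.5 against 204 TPM) and the PIWIL1 hit (91.0 against 217 TPM). The sum was not taken without them. The differentiated-cell RBPs summed to 1815 to 1838 TPM in bruli(RNAi) worms, 1967 TPM in the Smed-H2B(RNAi) library, 1795 to 1958 TPM in mbnl(RNAi) worms and 1795 TPM in the Smedwi-2(RNAi) library, against 1758 to 1930 TPM in control worms. None of smedwi-1, pcna, p53 and the progeny markers was at 0 in any library. The part of cell composition in the soxP-2 values was not tested.

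**Figure D3:**
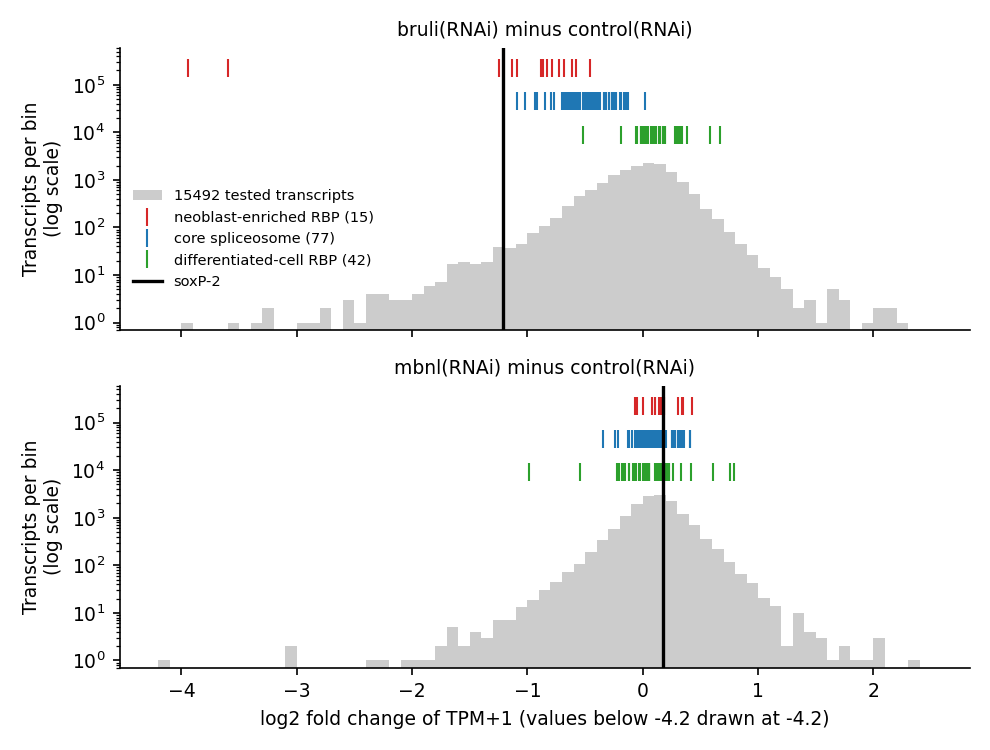
Distribution of limma log2 fold changes of TPM+1 over 15492 transcripts (grey, number per bin on a log scale) after bruli knockdown (top) and mbnl knockdown (bottom), each relative to control. Coloured ticks are members of the RBP lists and the black line is soxP-2, at -1.21 after bruli knockdown, below all core spliceosome transcripts, and at 0.17 after mbnl knockdown.

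The transcripts most like soxP-2 were taken by the Pearson correlation of log2(TPM+1) over all 11 libraries. These libraries fall into the 4 low and 7 high ones above and are not replicates of a condition, so the correlation mainly describes this split, and 953 of 15491 transcripts (6.15%) had an r above 0.9. Transcripts picked by r therefore differ between bruli(RNAi) and control worms largely by selection. Their p-values for bruli knockdown, given below, are no separate support. The highest r was that of comp8206_c0_seq1, which has no name in the sources used here (r = 0.99, Spearman rho = 0.90). It averaged 11.02 TPM in bruli(RNAi) worms, 23.7 TPM in mbnl(RNAi) worms and 22.7 TPM in control worms. Within the 7 libraries other than bruli(RNAi) and Smed-H2B(RNAi), its r fell to 0.56.

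The closest transcript with a name was ptbp-2 (comp2799_c0_seq1, r = 0.99, rho = 0.92), a homologue of the polypyrimidine tract-binding splicing repressors. ptbp-2 averaged 57.9 TPM in bruli(RNAi) worms, 54.7 TPM in the Smed-H2B(RNAi) library, 111 TPM in mbnl(RNAi) worms and 103 TPM in the Smedwi-2(RNAi) library, against 102 TPM in control worms. Its log2 fold change after bruli knockdown was -0.81 (SE 0.09, adjusted p = 0.00111 from limma), a direction that its choice by r had largely set. Within the 7 libraries outside the low ones its r was 0.77.

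The other RBPs at the top were hits to TRA2B, a splicing activator of the SR family (r = 0.99, -0.66 on the log2 scale, adjusted p = 0.00142 from limma), and to AGO2, the small RNA-guided Argonaute protein (r = 0.98, -0.40, adjusted p = 0.00666). The PIWIL1 hit named above had r = 0.98, as did a core spliceosome transcript known only by its KEGG identifier, K12852 (log2 fold change -0.92, adjusted p = 0.000915). Their fold changes ran between -1.25 and -0.40 at nearly the same r, since a correlation does not read the size of a change. Over the 11 libraries the markers were less alike, with r = 0.93 for smedwi-1, 0.92 for pcna, 0.92 for p53, 0.93 for prog-1 and 0.94 for prog-2-1. With fewer libraries the ranges overlapped. Over the 9 libraries with a day, r was 0.897 to 0.979 for these markers and 0.978 to 0.996 for the 5 RBP or spliceosome transcripts. Within the 7 libraries outside the low ones it was 0.439 to 0.781 and 0.441 to 0.827. At the other end, comp1721_c0_seq1 and comp3912_c0_seq1 had the lowest r, -0.95 each. comp3912_c0_seq1 averaged 16.5 TPM in bruli(RNAi) worms against 11.3 TPM in control worms and was called higher (0.52, adjusted p = 0.0142 from limma), and comp1721_c0_seq1 was at 0.14 (adjusted p = 0.147 from limma). These directions, too, follow largely from the choice by r.

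**Figure D4:**
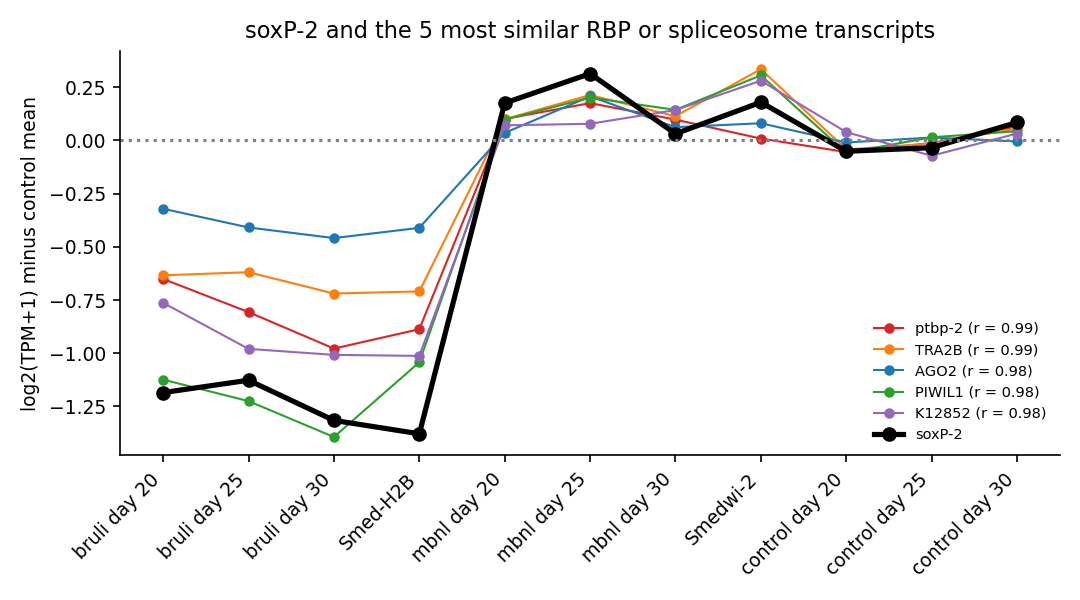
Difference of log2(TPM+1) from the control mean (vertical axis) in each of the 11 libraries (horizontal axis) for soxP-2 (black) and the 5 RBP or spliceosome transcripts with the highest r, joined by lines for legibility only. All lie low in the bruli(RNAi) and Smed-H2B(RNAi) libraries and near or above 0 in the others, with soxP-2 and the PIWIL1 hit lowest.

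The soxP-2 result after bruli knockdown held under each of the 22 alternative settings. The log2 fold change lay between -1.29 and -0.82, the smallest in size coming with a pseudocount of 5, and the adjusted p from limma between 0.000306 and 0.0316, the largest being that without the libraries of day 25. The mbnl contrast stayed above 0 and not significant, between 0.04 and 0.29, in all of them.

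**Figure D5:**
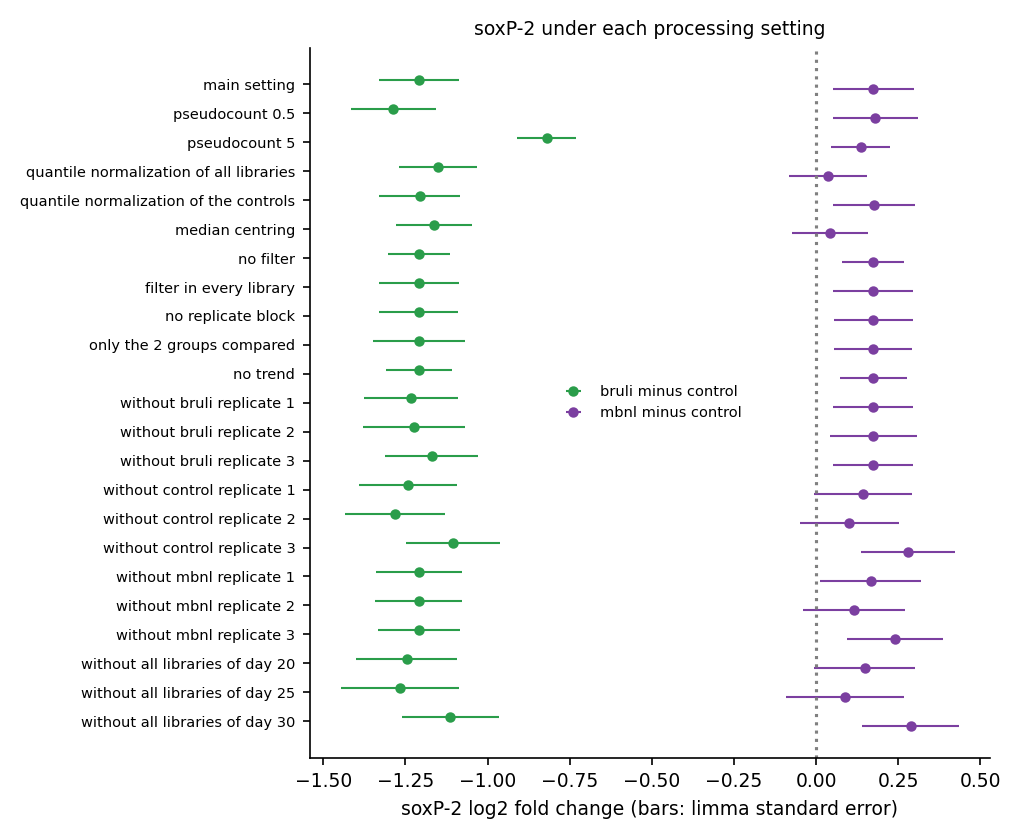
soxP-2 log2 fold change (horizontal axis) for bruli minus control (green) and mbnl minus control (purple) under the main setting and 22 alternatives (vertical axis), with bars of 1 limma standard error. The bruli values run between -1.29 and -0.82 and the mbnl values between 0.04 and 0.29.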

How the data were processed

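Whole-worm poly-A RNA was sequenced after TruSeq library preparation. Per the methods and the submitters' processing notes, the authors trimmed reads with Flexbar, filtered out rRNA with Bowtie2, aligned what remained to the Dresden assembly by Bowtie2 2.1.0 and counted reads per transcript with HTSeq 0.6.1p1; CASAVA 1.8.2 is named without a role. The authors deposited TPM values, 1 column per library, each summing to 1000000; how they were computed is not given in the sources used here.

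From these, log2(TPM+1) was computed, and limma 3.58.1 (R 4.3.3) was run on the 15492 transcripts whose average in the 9 libraries with a day exceeded 1.5, with group and day as terms, a mean-variance trend and Benjamini-Hochberg adjustment at 0.05. Day was a block because the methods set each knockdown against the corresponding control. Residuals from the group means correlated by 0.148 on average between same-day libraries of different groups. The average for different days, -0.0732, follows largely from that centring and is no separate observation. The fit had 4 residual and 5.26 prior degrees of freedom. Ratios to markers used exact permutation tests. Figures were drawn with matplotlib 3.10.9.

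Named genes were soxP-2, the knockdown targets, the markers and, by r, the 5 nearest RBP or spliceosome transcripts and the 2 highest and 2 lowest of all; list members named beside these were chosen after their values were seen. The gene, markers and lists were chosen with earlier results of these data known, and the study shows the markers for the same libraries, so they are not independent evidence. Alternatives were pseudocounts of 0.5 and 5, other filters and normalizations, no day block, no trend, only the 2 groups compared, and each library or day left out. P-values measure only the spread between these libraries, which may be technical.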

Additional observations from a re-analysis of the deposited data

Results flagged for a closer look

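The mbnl effect on soxP-2 had opposite signs at 2 of the days. Relative to the control of the same day, the mbnl(RNAi) library differed by 0.35 on the log2 scale at day 25 and by -0.053 at day 30. Each day holds 1 library per group, so this difference between days was not tested. The same order of signs, above control at days 20 and 25 and below it at day 30, was present in 9.24% of the tested transcripts. The progeny markers prog-1 (0.30, 0.77 and -0.23) and prog-1-1 (0.23, 0.73 and -0.038) shared it. In contrast, smedwi-1, pcna, p53 and prog-2-1 were above control at each day.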

How the results depend on the processing

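Under all 22 alternatives the soxP-2 contrasts kept their direction and their side of the threshold. With no replicate block for the day, adjusted p from limma was 0.000306 for bruli against control, 0.436 for mbnl against control and 7.87e-05 for bruli against mbnl, so the block changed none of these calls. Leaving out 1 library at a time, the ratio of soxP-2 to p53 ran between -0.40 and 0.091 and that to prog-2-1 between -0.23 and 0.42. The p53 ratio also reversed to 0.060 with a pseudocount of 5 and to 0.036 without all libraries of day 20, and the prog-2-1 ratio to -0.17 without all libraries of day 30. The Smed-H2B difference was -1.47 with a pseudocount of 0.5 and -0.92 with one of 5. The neoblast-enriched RBPs called lower after bruli knockdown numbered 9 with no filter, 6 without all libraries of day 25 and 8 without those of day 30. The main setting gave 14. Those settings gave 765, 178 and 404 lower among all transcripts, against 1758. Over all transcripts, calls after bruli knockdown ranged between 178 and 2271 lower and between 23 and 1409 higher, and after mbnl knockdown between 23 and 557 lower and between 21 and 809 higher. Median centring gave 1603 lower and 1409 higher after bruli knockdown, against 1758 and 1045. The cause of these shifts was not tested. What limits the soxP-2 values is 3 libraries per group that differ in day, unknown read depth and whole-worm RNA.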
